A study of Nothobranchius furzeri with 20 samples.

Results

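The upper dose step of a rotenone study in fish skin sets 5 libraries of animals kept at 10% of LC50 against 5 libraries at 1% of LC50, all at 9 weeks of age. These 10 of the 20 libraries of the series were chosen by the dose and age in their labels alone. LC50 is the median lethal concentration. Every animal was a male Nothobranchius furzeri, the turquoise killifish, of the strain MZM-04/10p, and every group received rotenone, so the comparison is between doses and not with untreated fish. A further group of 5 libraries, at 1% of LC50 and 27 weeks of age, lies outside the dose step and served as a reference. The remaining 5, at 0.1% of LC50 and 9 weeks, enter only a fit of all 20 libraries. The labels do not state that each library is a separate fish, and p-values therefore measure the spread between these libraries, which may in part be technical.

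Rotenone blocks complex I of the mitochondrial respiratory chain, where electrons from NADH enter the chain. Fish skin is a living mucous epidermis of keratinocytes and secretory cells over a dermis with scales, pigment cells, vessels and nerves. A sample of it mixes these cell types, and in such bulk RNA fewer cells of a type and less RNA per cell cannot be told apart. The genes are listed by identifier without names, so neither the tissue nor its cell types could be checked against markers, and results are given by abundance, size and library.

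The 15 libraries held between 21770720 and 29017737 reads assigned to genes. Of 26739 genes listed, between 20985 and 21448 were seen in each 9-week library. Levels are given as CPM, a gene's reads scaled to the same total in every library after TMM, a correction for a few abundant genes taking reads from all others. The libraries did not form 2 tight groups. Rank correlations across genes averaged 0.943 between pairs at 10% and 0.957 between pairs at 1%, while pairs made of 1 library of each dose averaged 0.939, and pairs at 27 weeks 0.978. Replicates 1 and 2 at 10% were the least like the rest, with mean correlations of 0.904 and 0.927 to the 1% libraries against 0.951 to 0.958 for the other 3. At 1%, replicate 3 was the library most like both other groups, at 0.953 to the 10% libraries (0.932 to 0.940 for the other 4) and 0.968 to those at 27 weeks (0.946 to 0.958). It also went against its label on most genes that separate the doses without it, as given with the placement of each library, so counts are given with and without these 3 libraries.

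At 10% the skin libraries spent a smaller share of their reads on genes of middle abundance than at 1%. Genes were sorted into 5 classes by their mean CPM at 27 weeks, a group that takes no part in the dose step. Shares are of all reads in a library, without TMM, and the 5 classes add up to that total. A gain in 1 class therefore lowers others, and with TMM the class of 10 to 100 CPM showed no such fall. Its median log2 change was then -0.0004, and 4247 of its 8510 genes had a positive change. The 8510 genes at 10 to 100 CPM held 25.95% ± 1.04 (SD, n = 5) of the reads at the upper dose, compared with 29.4% ± 1.58 at 1%, a difference of -3.42 points (two-sided exact permutation p = 0.00794, the smallest that 10 libraries allow; Benjamini-Hochberg adjusted over the 5 classes p = 0.0397). The 121 genes at 1000 CPM or more took 43.8% ± 1.55 against 38.4% ± 3.87, a difference of 5.38 points that missed the threshold after adjustment (exact permutation p = 0.0238, adjusted 0.0595). Classes of 100 to 1000 CPM (26.2% and 28.5%), 1 to 10 CPM (3.52% and 3.47%) and under 1 CPM (0.535% and 0.290%) did not pass either (exact permutation p = 0.0794, 0.944 and 0.381; adjusted p = 0.132, 0.944 and 0.476). At 27 weeks the top class took 36.9% ± 0.787 and the class of 10 to 100 CPM 30.1% ± 0.745. The mean of the 1% libraries at 9 weeks was the nearer of the doses to the older fish in both. For the top class 3 genes, given below, weigh on this order. The lower share of the 10 to 100 CPM class no longer passed without replicates 2, 3 or 4 at 1%, or without 2, 3, 4 or 5 at 10% (adjusted exact permutation p = 0.0595 to 0.0794, differences of -2.99 to -3.52 points). It passed without replicate 1 or 5 at 1%, or without replicate 1 at 10% (adjusted exact permutation p = 0.0397 in each). With all 10 libraries the doses do not overlap in this class, so they cannot overlap with 1 left out. Neither that nor a missed threshold shows whether the library left out carried the difference. The higher share of the top class passed without replicate 1 or 5 at 1% (6.33 and 6.39 points, adjusted exact permutation p = 0.0397 in both). These replicates held the highest shares of that class at 1% (42.2% and 42.4%), so the wider difference without either is built in. Without both replicates 1 and 2 at 10%, the class of 10 to 100 CPM differed by -3.97 points and that of 1 to 10 CPM by -0.607 (adjusted exact permutation p = 0.0446 in both), and the top class by 6.25 (adjusted p = 0.0595). That choice was made after the data were seen. Replicates 1 and 2 held the highest shares of 1 to 10 CPM at 10% (5.10% and 3.92%, against 2.74% to 2.94% in the others). The lower share of that class without them is thus built in, and its p is no test of the dose.

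**Figure D1:**
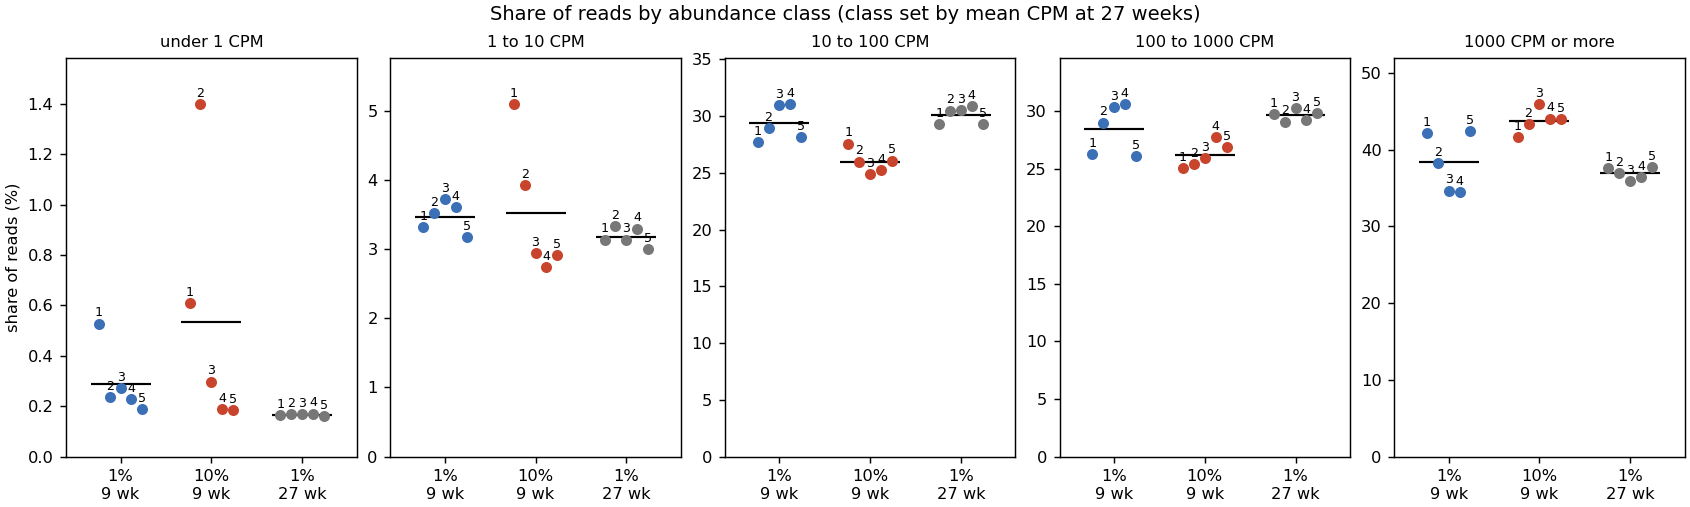
Share of reads in each library, in percent, for 5 classes of genes set by their mean CPM at 27 weeks, with libraries at 1% (blue) and 10% (red) at 9 weeks and at 1% and 27 weeks (grey). Points are libraries with their replicate number and lines are group means (n = 5). In the class of 10 to 100 CPM the doses do not overlap, with replicate 1 at 10% (27.6%) just below replicate 1 at 1% (27.7%), and in the top class replicates 3 and 4 at 1% lie lowest of the 10 libraries at 9 weeks, at 34.7% and 34.4%.

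Within the top class, 3 genes accounted for 3.05 of the 5.38 points. They were picked for their gain in share after the values were seen, so their values are a description. In the 1% libraries the 3 genes together took 10.8%, 6.96%, 2.89%, 2.02% and 12.49% of reads in replicates 1 to 5. At 10% they took 9.05%, 10.8%, 11.2%, 8.86% and 10.51%, and at 27 weeks 0.548% to 3.56%. The 10% libraries were thus alike, while the 1% libraries ranged from the level of the older fish in replicates 3 and 4 to above every 10% library in replicate 5. Within the 1% group the class of 10 to 100 CPM went the other way. It held 27.7% and 28.1% in replicates 1 and 5, and 31.0% and 31.1% in replicates 3 and 4. None of the 3 genes was called between the doses (log2 changes of 0.75, 0.65 and 0.71 with SE 0.51, 0.47 and 0.49; edgeR adjusted p = 0.375, 0.410 and 0.384). The other 118 genes of the class took 31.4% ± 0.921 at 1%, 33.7% ± 1.22 at 10% and 34.6% ± 1.73 at 27 weeks. As shares of all reads, the mean of these 118 genes at 10%, not at 1%, was the nearer to the older fish. The total still holds the reads of the 3 genes, on average 7.03% at 1%, 10.1% at 10% and 2.29% at 27 weeks. Those reads lower the share of the 118 genes unequally, so this order is not read as a trait of the 118 genes. The lowest share of the 118 genes at 10%, 32.6%, was above the highest at 1%, 32.4%.

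Gene by gene, 1682 of the 18473 genes with enough reads to test differed between the doses, 9.11% of them. Here a gene is named called where its edgeR quasi-likelihood p, adjusted by Benjamini-Hochberg over all genes tested, is under 0.05. At 10% of LC50 780 genes rose, or 4.22%, and 902 fell, or 4.88%. The fit takes its spread from all 15 libraries, those at 27 weeks included. With the 10 libraries at 9 weeks alone 468 genes were called, and with limma's voom and a weight per group 760. The split depends on the scaling. TMM factors were 0.875 to 0.917 in the 10% libraries and 1.000 to 1.11 in the 1% libraries, without overlap. With library totals alone as the scale, 408 genes were higher and 3117 lower, and the median log2 change of all genes was -0.18 against 0.04 with TMM. Changes here are therefore relative to the typical gene, not amounts per cell. Under all 4 scalings run, the 780 genes kept a positive and the 902 a negative change. A scaling shifts all genes by nearly the same amount, so kept signs are a weak check. Of the 780, those still called higher with library totals were 75 of 80 under 1 CPM and 164 of 249 at 1 to 10 CPM. They were 136 of 395 at 10 to 100 CPM, 19 of 45 at 100 to 1000 CPM and 0 of 11 in the top class. Median rises in that order of classes were 15.4, 2.25, 1.58, 1.65 and 1.27-fold. A shift in scale undoes a small rise more easily than a large one, so these shares do not rank the classes. The count moved by more than 1.5 times without replicates 1, 2, 4 and 5 at 1% (866, 642, 690 and 1066 genes called) and without replicates 1, 2 and 4 at 10% (1062, 1005 and 967), and was 2421 without replicate 3 at 1%.

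The share of genes called was highest in the middle of the abundance range. Of the 8510 genes at 10 to 100 CPM, 11.6% were called, 395 higher and 591 lower. At 1 to 10 CPM 249 genes were higher and 249 lower, 7.67% of 6496, and at 100 to 1000 CPM 45 and 46, 7.76% of 1172. In the top class 11 of 121 genes were higher and 0 lower, and 109 had a positive change, with a class median of 0.27 on the log2 scale. That lean rests on the scaling: with library totals 82 of the 121 were positive, the median was 0.05, and 0 were called higher and 1 lower. The class under 1 CPM held 10440 genes, of which 2174 passed the filter. Genes this low at 27 weeks can pass through a high level in 1 group at 9 weeks, so their 80 higher and 16 lower calls are not to be read against the other classes.

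**Figure D2:**
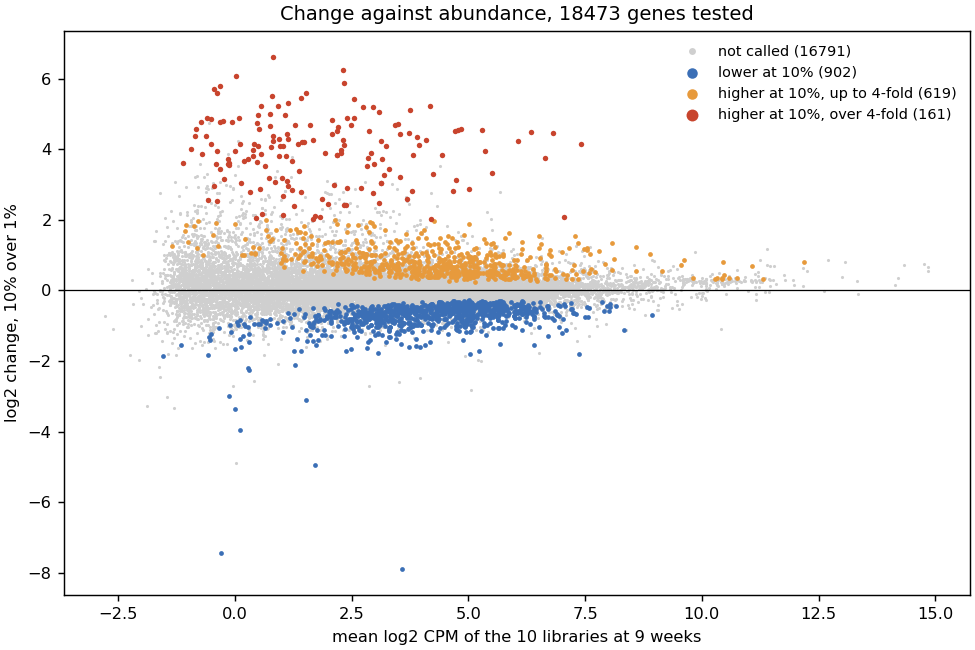
Log2 change of 10% over 1% (vertical) against the mean log2 CPM of the 10 libraries at 9 weeks (horizontal) for the 18473 genes tested. Each point is a gene, coloured by the edgeR call (adjusted p under 0.05). The 161 genes that rose over 4-fold are shown in red, with some uncalled genes at similar changes, while 10 genes fell over 4-fold.

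Most called changes were modest. Among genes that rose, 212 changed by less than 1.5-fold, 240 by 1.5 to 2-fold, 167 by 2 to 4-fold and 161 by more. Among those that fell, the counts were 355, 405, 132 and 10. Tested against a change of 1.5-fold rather than against none, 0 of the 18473 genes passed (edgeR glmTreat, smallest adjusted p 0.0838; 1088 at an unadjusted p under 0.05), and limma's treat on voom values passed 1 with a weight per library and 0 with a weight per group. Without replicate 3 at 1% the same edgeR test passed 88 genes, and without replicate 1 at 1% it passed 1.

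The rises over 4-fold belong largely to a single library. Summed over the 161 genes, the level at 1% was 432, 739, 1220, 725 and 655 CPM in replicates 1 to 5. At 10% it was 49443, 3838, 1432, 2575 and 3216 CPM, and at 27 weeks 807 to 1153 CPM. Replicate 1 at 10% was thus more than 10 times above any other library, while the other 4 libraries at 10% were still all above the 5 at 1%, a position that the choice of the genes favours. For 143 of the 161 genes replicate 1 held more than the other 4 libraries together, and for 145 it was the highest. Their median change was 16.1-fold with all libraries and 3.53-fold without replicate 1, when 65 of them were still called. Without that library 55 of the 161 kept a rise over 4-fold, called or not. Among all genes, 44 were both called and over 4-fold in that fit. Of the 161 genes, 62 were under 1 CPM and 79 at 1 to 10 CPM at 27 weeks, classes that held 2174 and 6496 of the 18473 genes tested. Genes under 1 CPM at 27 weeks can pass the filter through a high level at 9 weeks, so large changes among them are partly built in.

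The summed level of the other 619 genes that rose was carried by no single library to that extent. Without replicate 1 at 10%, 387 of them were called. The count of all rises fell further without replicate 2 or 4 at 1%, to 221 and 248, against 517 without replicate 1 at 10%. Of the 619, 381 did not overlap between the doses, a separation that their choice favours. Among all genes tested, 3.10% had every 10% library above every 1% library. The 619 genes summed to 37136, 32142, 42351, 32432 and 37262 CPM in replicates 1 to 5 at 1%, and to 53434, 54912, 56940, 59440 and 55926 CPM at 10%. The 902 genes that fell summed to 35647, 35186, 29391, 42696 and 35040 CPM at 1%, and to 21096, 19567, 23410, 22337 and 25224 CPM at 10%. No library of 1 dose reached into the other, which follows in part from how these genes were chosen. Within the 1% group replicate 3 stood nearest to the 10% libraries in both sums, and replicate 4 farthest among the genes that fell. At 27 weeks the sums were 39644 to 48095 and 25873 to 30974 CPM. Their means lay between the doses, and both ranges overlapped the 1% group through its replicate 3.

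**Figure D3:**
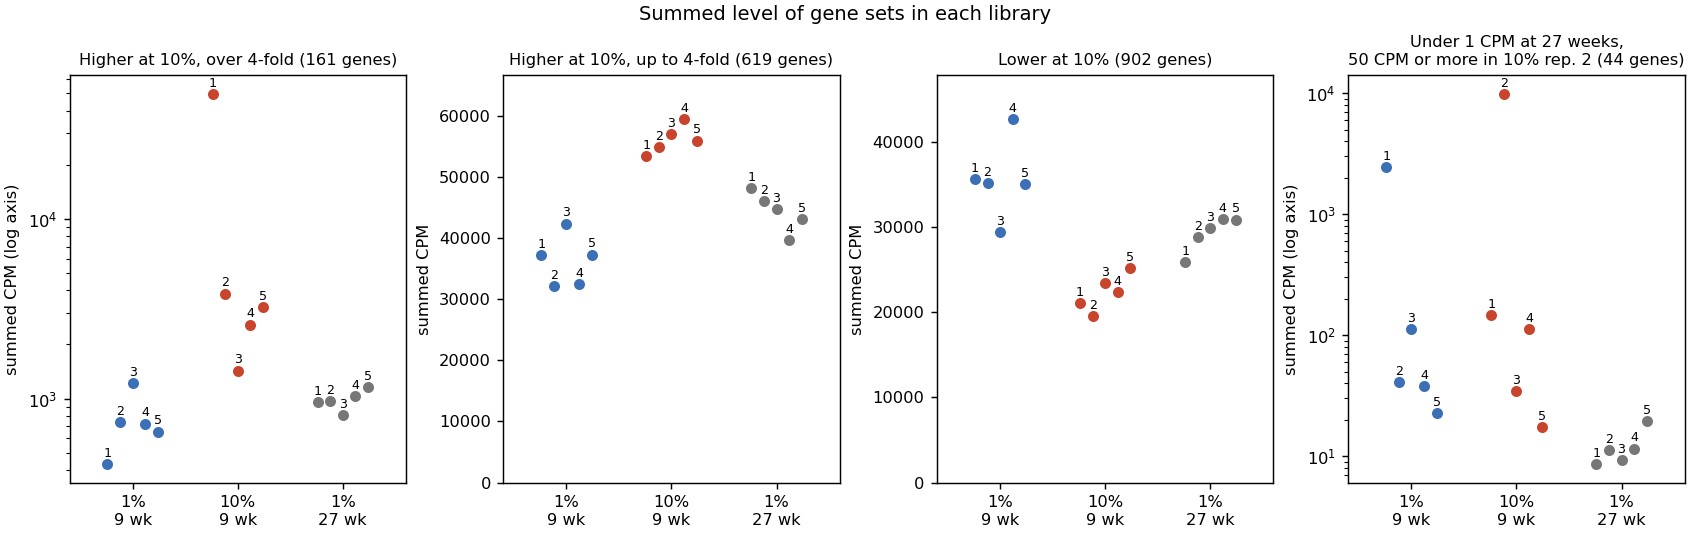
Summed CPM of 4 sets of genes in each library, at 1% (blue) and 10% (red) at 9 weeks and at 1% and 27 weeks (grey), with replicate numbers. The first and last panels have log axes. The 161 genes over 4-fold peak in replicate 1 at 10%, the sets of 619 and 902 genes do not overlap between the doses at 9 weeks, and the last set of 44 genes is high in replicate 2 at 10% and replicate 1 at 1%.

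A second set of genes was high in single libraries of both doses. In the class under 1 CPM, 44 genes reached at least 50 CPM in replicate 2 at 10%, a choice made after the class shares were seen. They summed to 9840 CPM there and to 17.3 to 147 CPM in the other 10% libraries. At 1% they summed to 2453 CPM in replicate 1 and to 22.7 to 112 CPM in the other 4, and at 27 weeks to 8.60 to 19.498 CPM. For 42 of the 44 genes replicate 1 at 1% was the second highest of all 15 libraries. Of 43 that were tested 0 were called between the doses (edgeR, smallest adjusted p 0.0802). All 43 had a positive change, a sign that the choice on a 10% library largely sets. The high libraries of this set are thus 1 of each dose, with the other 8 libraries at 147 CPM or less.

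The steepest falls came from an uneven 1% group. The gene with the largest fall was at 3.75, 196, 1155, 1106 and 1.29 CPM in replicates 1 to 5 at 1%, and at 1.84, 2.24, 2.05, 2.28 and 1.87 CPM at 10%. At 27 weeks it was at 2.14 to 9.64 CPM. Replicates 2, 3 and 4 at 1% thus stood apart from the other 12 libraries, and replicate 5 lay below all 5 at 10%. Its log2 change was -7.90 (SE 1.4998, edgeR adjusted p = 0.00937). The gene with the next largest fall had 40.1, 40.3 and 32.2 CPM in replicates 2, 3 and 4 at 1%, and 1 read each in replicates 1 and 5. At 10% it had 0 to 5 reads, and at 27 weeks 4 to 11, in each library. Its log2 change was -7.45 (SE 1.505, edgeR adjusted p = 0.0123). With 3 of 5 libraries carrying the level, both values describe those libraries more than a group mean. Of the 10 genes that fell over 4-fold, replicates 2 and 4 at 1% exceeded every 10% library in all 10, replicate 3 in 9, replicate 1 in 7 and replicate 5 in 2. The genes were chosen for their fall in these same libraries, which favours such positions, so the counts only describe how uneven the 1% group was.

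The genes given by identifier were chosen by rule, among those called with all libraries and in each of the 10 fits that leave out 1 library. That condition kept 526 genes, 31.3% of those called, with 192 higher and 334 lower. Of these, 96 rose and 82 fell by more than 2-fold. By abundance, 348 of them lay at 10 to 100 CPM, 139 at 1 to 10 CPM, 31 at 100 to 1000 CPM, 8 under 1 CPM and 0 in the top class. These classes held 8510, 6496, 1172, 2174 and 121 of the 18473 genes tested. With 526 kept of 18473, few of 121 genes would be kept, so the 0 is not read as a trait of the top class. Without replicates 1 and 2 at 10%, 250 of the 526 were still called. Both genes with the steepest falls meet the condition, so it does not exclude a change carried by only some libraries of a group. In each direction the most abundant gene and the gene with the widest gap between the doses are given. The files and the gene table used do not give these identifiers a name or function.

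Nfu_g_1_020572 was the most abundant of the 192. It was at 192, 218, 419, 267 and 226 CPM in replicates 1 to 5 at 1%, and at 318, 669, 742, 675 and 677 CPM at 10%. Replicates 2 to 5 at 10% lay above all 5 libraries at 1%, and replicate 1 lay below replicate 3 at 1%. The log2 change was 1.22 (SE 0.26, edgeR adjusted p = 0.0154), and the level at 27 weeks was 437 ± 119 CPM (SD, n = 5).

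Nfu_g_1_000421 had the widest gap upward. Its level was 2.09, 2.04, 1.93, 2.17 and 0.689 CPM at 1%, and 4.87, 12.2, 7.13, 8.90 and 4.84 CPM at 10%. The lowest 10% library was 2.19 times the highest at 1% on the scale of log2 CPM with a prior count of 2. The log2 change was 2.09 (SE 0.32, edgeR adjusted p = 0.00509), and the 27-week libraries, at 3.75 to 6.42 CPM, lay above every 1% library at 9 weeks and overlapped those at 10%.

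Nfu_g_1_013132 was the most abundant of the 334 that fell. It was at 277, 301, 250, 330 and 305 CPM at 1%, and at 202, 181, 212, 225 and 248 CPM at 10%. The groups touched without overlap, with replicate 3 at 1% and replicate 5 at 10% side by side. The log2 change was -0.45 (SE 0.10, edgeR adjusted p = 0.0173), with 263 ± 11.1 CPM at 27 weeks. In a fit of the 10 libraries alone and in one without replicates 1 and 2 at 10% it did not pass (edgeR adjusted p = 0.0571 and 0.101).

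Nfu_g_1_011615 had the widest gap downward. It was at 12.9, 13.3, 10.6, 14.1 and 12.3 CPM at 1%, and at 5.58, 5.23, 4.75, 5.12 and 6.84 CPM at 10%. Both groups were tight and well apart, a separation that the choice by widest gap favours. The log2 change was -1.20 (SE 0.14, edgeR adjusted p = 0.00478). The level at 27 weeks was 6.45 to 10.0 CPM, between the doses except for replicate 1, which overlapped the 10% group.

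**Figure D4:**
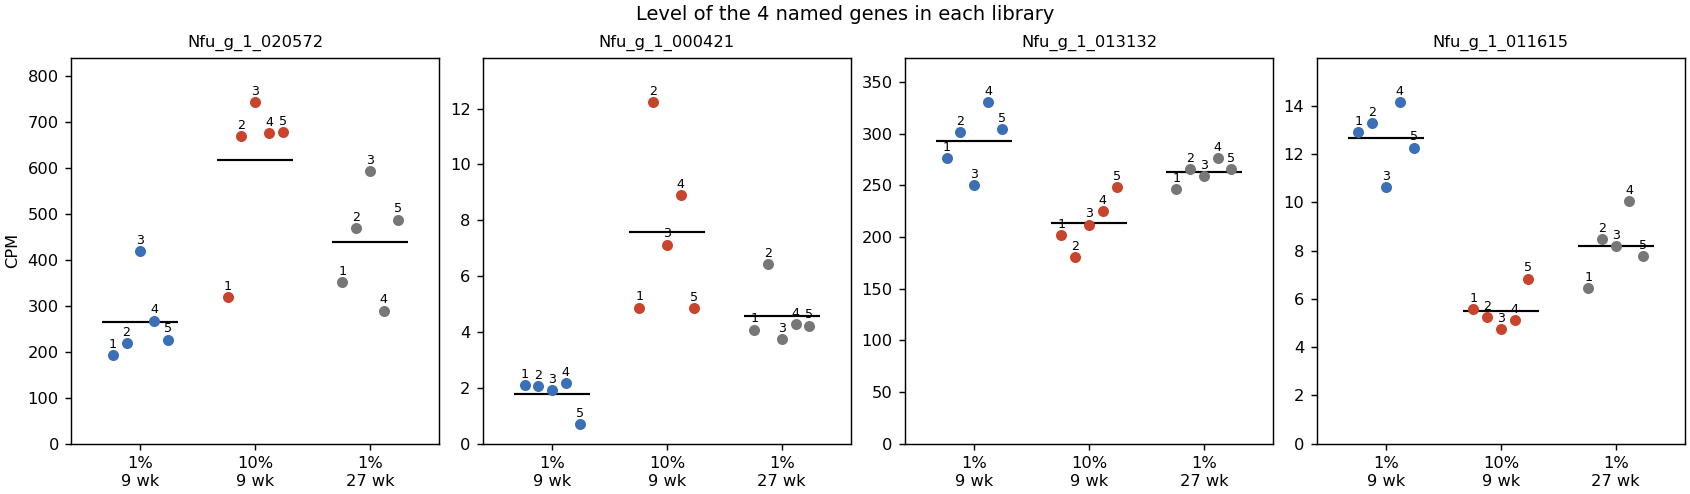
CPM of the 4 named genes in each library, at 1% (blue) and 10% (red) at 9 weeks and at 1% and 27 weeks (grey), with replicate numbers and group means (lines, n = 5). The first gene overlaps between the doses through replicate 1 at 10%, at 318 CPM, and the other 3 do not overlap.

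Each library was then placed on genes that had been called without it. For every library the fit and the group means were made from the remaining ones, and the share of called genes for which the library lay nearer its own group was counted. All 5 libraries at 10% lay nearer their own group for most genes, at 78.2%, 86.7%, 69.6%, 80.4% and 72.5% for replicates 1 to 5, against 55.4% to 61.3% of all genes tested. At 1%, replicates 1, 2, 4 and 5 did so for 81.6%, 96.4%, 91.9% and 76.4%, against 57.5% to 66.3% of all genes. Replicate 3 at 1% did so for 33.1% of 2421 called genes and 45.0% of all genes, so that on most of these genes it lay nearer the 10% libraries. On a scale from 0 at its own group mean to 1 at the other, its median position was 0.64, and that of the other 9 libraries was -0.20 to 0.34. It held the highest 1% value for 503 of the 780 genes that rose, or 64.5% against 22.1% of all genes tested, and the lowest for 657 of the 902 that fell, or 72.8% against 21.7%. Leaving it out gave 1051 rises and 1370 falls, a set of 2421 that holds 1591 of the 1682. Among the 10% libraries, replicate 2 was lowest for 450 of the 902 genes that fell, or 49.9%, against 22.6% of all genes tested. Replicate 5 was highest for 469, or 52.0%, against 18.8%. Over the 780 genes that rose, replicate 1 was highest for 307, or 39.4%, against 23.2%. The 780 and 902 genes were called with all libraries, so these counts of highest and lowest values, unlike the shares above, are not held out. That choice can favour a 10% library that is low on falls or high on rises.

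**Figure D5:**
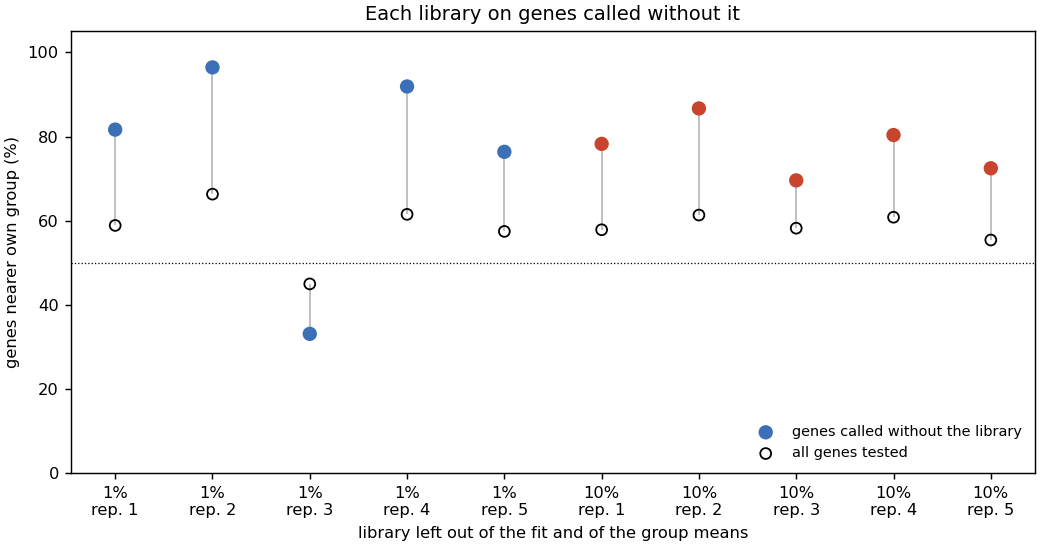
Share of genes, in percent, for which a library lies nearer its own group than the other dose, for genes called without it (filled; blue 1%, red 10%) and for all genes tested (open). The dotted line marks equal numbers on both sides. Replicate 3 at 1%, at 33.1%, is the only library of the 10 below the line.

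Spread within the doses is given by its size, with no test. The median SD of log2 CPM over the genes tested was 0.29 at 10%, 0.33 at 1% and 0.25 at 27 weeks. At 100 to 1000 CPM it was 0.21 at 10% and 0.29 at 1%, and the 10% group had the larger SD for 28.7% of genes. At 10 to 100 CPM it was 0.22 and 0.26, with the 10% group larger for 39.7%. At 1 to 10 CPM it was 0.36 and 0.38, with the 10% group larger for 48.5%. In the top class the medians were close, at 0.161 at 10% and 0.154 at 1%. The 10% group was larger for 44.6% of its genes, against 44.1% of all genes tested. The class under 1 CPM is not given by itself, since its genes were filtered, but its 2174 tested genes are part of the medians over all genes. Without replicates 1 and 2 the median SD at 10% was 0.21 over all genes, a lower value that leaving out the libraries least like the rest builds in. Without replicate 3 the median SD at 1% was 0.31. Both values rest on fewer libraries than the medians of whole groups and are not on a par with them. The fit without replicates 1 and 2 at 10% gave 240 rises and 157 falls, a set of 397 that holds 339 of the 1682.

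The 27-week libraries lay between the doses for most called genes. The mean log2 CPM at 27 weeks was between both 9-week means for 593 of the 780 genes that rose, or 76.0%, and for 768 of the 902 that fell, or 85.1%, against 34.9% of all genes tested. It was nearer to 10% than to 1% for 41.9% and 44.9%, against 48.03% of all genes tested. Genes chosen for a difference between 2 groups tend to have any other group between them, and no test was made. Compared with 1% at 9 weeks, the median log2 difference over the genes that rose was 0.87 at 10% and 0.35 at 27 weeks, and over those that fell -0.64 and -0.30. The comparisons share the 1% libraries. In 148 of the 780 genes all 5 libraries at 10% were above the 10 others, and in 156 of the 902 they were below, against 0.996% and 0.937% of all genes tested. The 1% libraries at 9 weeks stood below all 10 others in 74 of the genes that rose and above them in 80 of those that fell, against 0.493% and 0.476% of all genes tested. The choice of genes for a difference between the doses favours all these counts over the shares of all genes.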

How the data were processed

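Skin RNA of 20 samples went through TruSeq library preparation, per the labels' protocols. The submitters' processing notes name featureCounts 1.4.6-p4, STAR 2.4.1d and CASAVA 1.8.2. Not given in the sources used here are the genome build, annotation and strand mode. Reads of overlapping genes and near-identical copies can therefore be split between them. The deposited values used are raw counts of reads per gene. Columns were matched to samples by title, and 10 columns of counts that match no sample were not used. Deposited RPKM values were not used. Of 26739 identifiers 0 matched the gene table given (assembly NfurGRZ-RIMD1). Lists of genes by name could therefore not be used, and the identifiers carry no location.

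The libraries were assigned by their labels, while the choice of this comparison, its classes, lists and tests was made with earlier results of these data known. Replicate numbers follow the order of the samples and pair no libraries. Every pair of replicates differed by more than counting noise (smallest chi-square per degree of freedom 32.6). Tests were two-sided, in R 4.3.3 with edgeR 4.0.16: TMM, filterByExpr and the quasi-likelihood test (glmQLFit, glmQLFTest), with a mean for each group over the 15 libraries of 1 table, and Benjamini-Hochberg adjustment over all genes tested. SEs come from the change and its F statistic. The glmTreat test used 1.5-fold. Log2 CPM values have a prior count of 2. Shares of reads were compared by exact permutation over the 252 divisions of 10 libraries, and over fewer divisions where libraries were left out. The fits were tested on simulated counts. Named genes were those called in all 10 fits without 1 library: in each direction the highest mean CPM and the widest gap between the nearest libraries. Alternatives were other scalings and filters, DESeq2 1.42.0, limma 3.58.1 with voom weights, fits of 10 or 20 libraries, and leaving out libraries. Totals above 21770720 reads leave counting error small for all but genes with few reads.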

Additional observations from a re-analysis of the deposited data

Results flagged for a closer look

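Of 59 sets of 5 values examined, 8 held a library whose gap to its neighbour exceeded the critical value of Dixon's test, which chance passes in about 1 set in 20. Both sums at 10% are over genes chosen on those libraries, so that 1 high library is partly built in.

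The 161 genes that rose over 4-fold summed to 49443 CPM in replicate 1 at 10%, and the next library of the group was at 3838 CPM. The 44 genes picked for their level in replicate 2 at 10% summed to 9840 CPM there, with the next at 147 CPM. At 1%, which took no part in that choice, they summed to 2453 CPM in replicate 1 with the next at 112 CPM. At 27 weeks the highest sum was 19.498 CPM, with the next at 11.51 CPM. The share of reads on genes under 1 CPM was 0.528% in replicate 1 at 1% and at most 0.271% in the other 4.

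Nfu_g_1_020572 was lowest at 10% in replicate 1, at 318 CPM, with the next library at 669 CPM. Without that library its log2 change was 1.38 (1.22 with it). Nfu_g_1_000421 was at 0.689 CPM in replicate 5 at 1%, the next being 1.93 CPM, and at 6.42 CPM in replicate 2 at 27 weeks, the next being 4.28 CPM. What sets these libraries apart was not tested.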

How the results depend on the processing

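The 1682 calls (780 higher, 902 lower) kept within 1.5 times with RLE or upper quartile scaling, both other filters, a robust prior, all 20 libraries and voom with a weight per library. Library totals alone gave 3525 (408 and 3117), DESeq2 2587 (1206 and 1381), voom with a weight per group 760 (338 and 422), and the 10 libraries alone 468 (175 and 293). Without replicates 1 and 2 at 10%, an alternative chosen after seeing the data, 397 were called (240 and 157). Without 1 library the count ran from 642 to 2421, with 221 to 1051 higher and 421 to 1370 lower. Genes beyond 1.5-fold numbered 0, but 3 with all 20 libraries, 1 with voom and a weight per library, 1 without replicates 1 and 2 at 10%, and 0 to 88 without 1 library.

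The share difference of the 10 to 100 CPM class ran from -3.83 to -2.99 points without 1 library and missed the threshold with classes set on library totals (-3.30). That of the top class ran from 4.40 to 6.39, and that of the class of 100 to 1000 CPM kept its sign. The class of 1 to 10 CPM turned to -0.167 with classes from all 15 libraries and to -0.607 without replicates 1 and 2 at 10%, and ran from -0.343 to 0.247 without 1 library. The class under 1 CPM, at 0.245 with all libraries, was 0.0292 without replicate 2 at 10% and 0.0121 with classes from all 15 libraries, and turned to -0.0669 without replicates 1 and 2 at 10%. The causes were not tested.

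At 10% a library detected 16593 ± 226 genes (SD, n = 5) at 1 CPM or more, against 16374 ± 81.2 at 1% (exact permutation p = 0.0952). The difference of 219 ran from 138 to 273 without 1 library and passed without replicate 4 or 5 at 10% (exact permutation p = 0.0397 in both). Those replicates detected the fewest genes at 10% (16379 and 16374), so the wider difference without either is built in. The difference was 88.7 without replicates 1 and 2 at 10% (exact permutation p = 0.357) and 104.6 at a threshold of 0.1 CPM (p = 0.476). No paired analysis was possible because replicate numbers do not pair libraries across groups.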
